A study of Mus musculus with 2 samples.

Results

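Pou5f1 and Ewsr1 are the mouse genes of the proteins that are joined in the EWS-OCT4A fusion, OCT4 and EWS. They are described here with their paralogs Pou2f1, Pou6f1 and Taf15. The members were chosen by name: every array probe set whose annotation gives 1 gene symbol, and that symbol is one of these 5 genes, was taken. This left 4 probe sets, 1 each for Pou5f1, Pou6f1, Ewsr1 and Taf15, of 33793 probe sets on the array and 23521 with a single symbol. Pou2f1 had no such probe set and was not analysed here.

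The POU family is named for a bipartite DNA-binding domain, a POU-specific domain and a POU homeodomain, which in several members reads an octamer element. OCT4, encoded by Pou5f1, holds embryonic stem cells in the pluripotent state, and when it is lost these cells turn towards trophectoderm, the precursor of placental tissue. EWS and TAF15 belong to the FET family, RNA-binding proteins with an N-terminal low-complexity region that can act as a transcriptional activator. In EWS fusions of human tumours that region is joined to the DNA-binding part of a transcription factor.

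The samples were mouse embryonic stem cells labelled NIWA ESC: 1 from a stable line with EWS-OCT4A-GFP and 1 from a GFP control line. Both lines grew with LIF, the cytokine that supports self-renewal, and both had doxycycline at 1 µg/ml, which the labels' protocols give as the way to lower endogenous OCT-4. The labels state neither the promoter that drives either transgene nor whether a line is 1 clone, and no sample without doxycycline was included. Values are RMA signals on the log2 scale, with array medians of 4.11 for EWS-OCT4A-GFP and 4.08 for GFP. Each difference below is EWS-OCT4A-GFP minus GFP. With 1 sample a line there is no replicate error and no test, so that each difference describes these 2 samples alone. In a bulk sample, fewer cells of a type and less RNA per cell cannot be told apart.

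None of the 4 measured members differed by 2-fold. Their differences ran from -0.39 to 0.36 with a median of 0.12. Among the 13516 genes whose higher value reached the median of all array values (4.10, the floor below), 9.31% were higher in EWS-OCT4A-GFP cells by 2-fold or more and 11.9% were lower by that much, 21.2% in all. The median size of difference over those genes was 0.46, more than that of any measured member. A count of 0 among 4 genes says little beside a share of 21.2%.

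**Figure D1:**
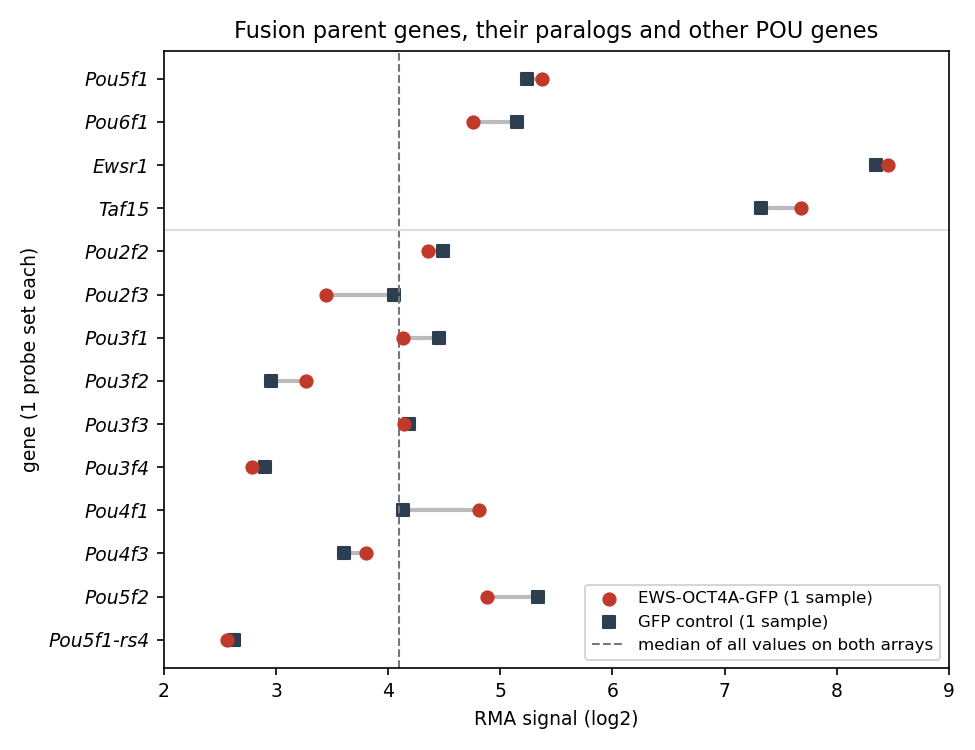
RMA signal on the log2 scale in the EWS-OCT4A-GFP sample (circles) and the GFP sample (squares) for the 4 measured members (above the line) and 10 other POU symbols. Each point is 1 probe set in 1 sample, and the dashed line is the median of all values, 4.10. The circle and square of Pou5f1 and of Ewsr1 nearly coincide, and no pair is a full log2 unit apart. Signals of different probe sets are not on a common scale of abundance, so only the points of the same row can be compared.

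Pou5f1, which encodes OCT4, read 5.37 in EWS-OCT4A-GFP cells and 5.24 in GFP cells. That is a difference of 0.13, or 1.09-fold, and of 0.059 with the trend of difference on signal removed by loess. A smaller difference was found for 15.9% of genes reaching the floor. Both readings exceeded the floor by little, 1.27 in EWS-OCT4A-GFP cells and 1.14 in GFP cells, and how far they stand above background is unknown without a detection call. RMA compresses differences between weak signals. Whether the probe set detects the OCT4A part of the transgene, whose species the labels do not state, is unknown here, and the reading is no check of either label. A related sequence with its own symbol, Pou5f1-rs4, read 2.56 in EWS-OCT4A-GFP cells and 2.63 in GFP cells, both under the floor.

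Pou6f1, the gene of a POU factor best known from brain, read 4.76 in EWS-OCT4A-GFP cells and 5.15 in GFP cells. It was the 1 measured member with a lower reading in the EWS-OCT4A-GFP sample, by a difference of -0.39 (1.31-fold), and 44.0% of genes reaching the floor differed by less. Here too both readings lay near the floor.

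The proximal promoters of these POU genes are shown because OCT4 lies on one side of the fusion and its own gene is regulated through this stretch. Each is the 250 bases before the annotated start, 5′ to 3′ on the gene's strand, from RefSeq (GRCm38.p6), with motif matches in capitals. Of 2 promoter windows listed for Pou5f1, the one nearest the 5′ end of the annotated gene was taken.
Pou5f1 (chr17:35505782-35506031, plus strand): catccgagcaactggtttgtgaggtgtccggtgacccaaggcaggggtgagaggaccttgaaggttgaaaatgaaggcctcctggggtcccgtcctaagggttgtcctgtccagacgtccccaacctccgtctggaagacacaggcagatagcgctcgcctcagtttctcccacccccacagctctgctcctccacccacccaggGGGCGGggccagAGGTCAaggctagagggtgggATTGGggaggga
Pou6f1 (chr15:100599985-100600234, minus strand): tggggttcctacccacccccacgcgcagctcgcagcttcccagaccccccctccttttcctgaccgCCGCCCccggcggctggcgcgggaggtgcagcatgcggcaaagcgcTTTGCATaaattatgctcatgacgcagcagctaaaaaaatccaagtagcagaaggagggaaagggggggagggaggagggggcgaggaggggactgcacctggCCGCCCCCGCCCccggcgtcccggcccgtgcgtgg

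Motifs were searched on both strands as exact letters: the octamer ATGCAAAT, its first 7 letters ATGCAAA, the GC box GGGCGG, the nuclear receptor half-site AGGTCA, the CCAAT box CCAAT and the TATA box TATAAA. The 7 letters lie within the octamer, so those 2 searches overlap. In the Pou5f1 window a GC box began 45 bases before the start, a receptor half-site 33 bases and a CCAAT box on the opposite strand 12 bases before it. Of 32851 windows of the same length, 32.7% held a GC box, 14.0% the half-site and 33.8% a CCAAT box. The Pou6f1 window held the 7 octamer letters on the opposite strand, from 138 to 132 bases before the start, and 3 GC boxes, 2 of them side by side. The 7 letters were in 4.12% of all windows, the full octamer in 1.60% and the TATA box in 12.4%. A match is a match of letters and not evidence of binding.

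Ewsr1, which encodes the RNA-binding protein EWS, read 8.46 in EWS-OCT4A-GFP cells and 8.35 in GFP cells, far above the floor in both. The difference of 0.11 (1.08-fold) is the smallest among the measured members, and 13.3% of genes reaching the floor differed by less. Under loess centring it came to 0.0022. Whether the probe set detects the EWS part of the transgene is likewise unknown here.

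Taf15, which encodes the FET protein that associates with the general transcription factor TFIID, read 7.68 in EWS-OCT4A-GFP cells and 7.33 in GFP cells. Its difference was 0.36, or 1.28-fold, with 40.9% of genes reaching the floor differing by less. Under loess centring it was 0.26.

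The promoters of the FET pair are shown for comparison with each other, in the same form.
Ewsr1 (chr11:5099097-5099346, minus strand): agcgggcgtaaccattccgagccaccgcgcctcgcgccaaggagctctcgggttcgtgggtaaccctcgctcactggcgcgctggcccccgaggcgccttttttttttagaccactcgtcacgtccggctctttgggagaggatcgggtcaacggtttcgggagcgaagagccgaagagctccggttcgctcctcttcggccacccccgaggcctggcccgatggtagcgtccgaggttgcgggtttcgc
Taf15 (chr11:83472858-83473107, plus strand): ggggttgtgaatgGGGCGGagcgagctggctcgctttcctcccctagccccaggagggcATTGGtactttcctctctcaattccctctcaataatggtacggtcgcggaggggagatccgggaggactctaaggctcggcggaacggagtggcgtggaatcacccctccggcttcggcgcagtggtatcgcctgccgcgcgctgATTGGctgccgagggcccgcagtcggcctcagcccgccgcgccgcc

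None of the 6 motifs was found in the Ewsr1 window. The Taf15 window held a GC box that began 237 bases before the start and CCAAT boxes on the opposite strand that began 191 and 46 bases before it. Both windows were rich in CG dinucleotides, with 31 in Ewsr1 and 25 in Taf15, against 20 in Pou6f1, 8 in Pou5f1 and a median of 6 over all windows. The G and C content was 65.6% for Ewsr1, 66.8% for Taf15, 68.0% for Pou6f1 and 62.0% for Pou5f1, with a median of 52.4% over all windows.

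**Figure D2:**
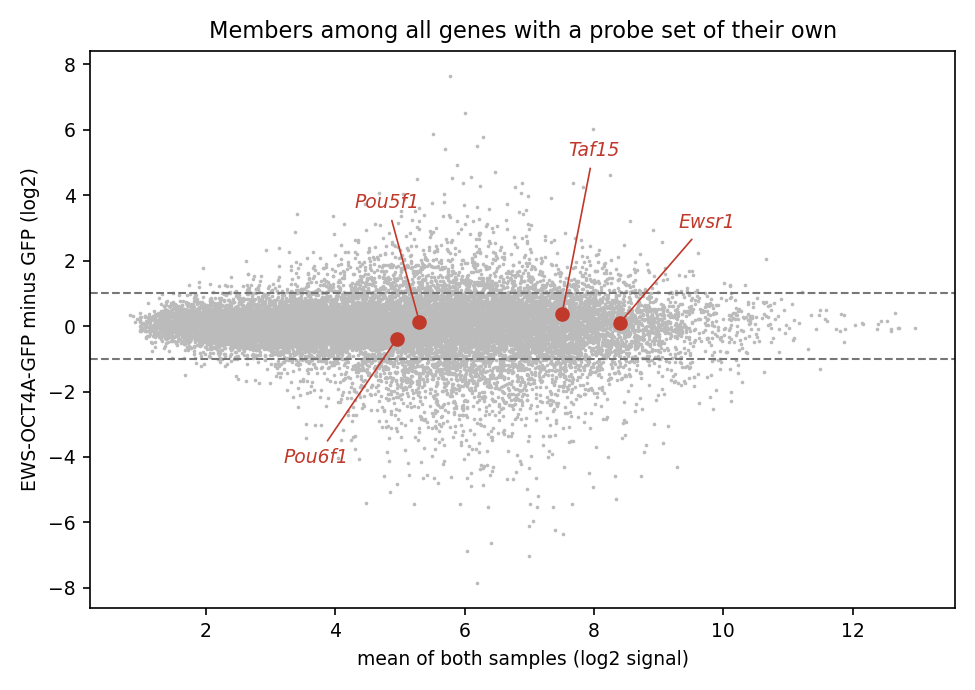
Difference (EWS-OCT4A-GFP minus GFP, log2) against the mean of both samples (log2 signal) for 22180 genes, each a grey point, with the 4 measured members in red. Dashed lines mark 2-fold. All 4 members lie between the lines, between -0.39 and 0.36.

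Of 12 other POU genes, 9 had a probe set of their own, 5 of these reached the floor and 0 of the 5 differed by 2-fold. Beside the 21.2% of all genes that did, this count too says little. The list had 3 genes above 0 and 6 below, a median of -0.12, and readings no higher than 5.34. Pou4f1, a factor of sensory neurons, read 4.81 in EWS-OCT4A-GFP cells and 4.13 in GFP cells, the widest gap of the list at 0.68. Pou5f2, a POU gene known from testis, read 4.88 in EWS-OCT4A-GFP cells and 5.34 in GFP cells. Pou3f1, which encodes OCT6, differed by -0.32, and Pou2f2, which encodes the B-cell factor OCT2, by -0.13. Pou3f3 differed by -0.04, and Pou2f3 (-0.60), Pou3f2 (0.31), Pou3f4 (-0.12) and Pou4f3 (0.20) lay under the floor in both samples.

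Many genes known to depend on OCT4 differed by 2-fold or more. Of 20 measured genes listed as activated by OCT4, 19 reached the floor, 16 were at least 2-fold higher in EWS-OCT4A-GFP cells and 0 at least 2-fold lower, beside 9.31% and 11.9% of all genes, with a median difference of 2.54. The median over all 22180 genes was 0. The list was drawn up with earlier results of these samples known and is no independent evidence of a direction. Nr0b1, which encodes the nuclear receptor DAX1, differed by 7.65, Tdgf1, a Nodal co-receptor gene, by 6.04, Nanog by 4.61 and Etv5, an ETS factor gene, by 4.57. Nr0b1 (1.96) and Etv5 (3.82) were under the floor in GFP cells, so the size of their differences is uncertain. Of 15 listed as repressed by OCT4, a list drawn up in the same way and no independent evidence either, 14 reached the floor. At least 2-fold lower were 12 and higher 0, beside 11.9% and 9.31% of all genes. The median was -2.77. Cga, which differed by -0.06, was under the floor in both samples (3.42 in EWS-OCT4A-GFP cells and 3.48 in GFP cells), so that little can be read from it. Krt18 and Krt8, keratins of simple epithelia, differed by -6.37 and -5.29, the growth factor gene Igf2 by -5.54 and the trophoblast factor gene Gata2 by -5.45. Cdx2, which opposes OCT4 in the choice of trophectoderm, read 5.54 in EWS-OCT4A-GFP cells and 6.09 in GFP cells.

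Markers of the labelled cell type and of trophectoderm differed with these lists, which share 7 and 8 genes with them. The 8 embryonic stem cell markers averaged 8.29 in EWS-OCT4A-GFP cells and 5.46 in GFP cells. Of these, 7 reached the floor and 7 were at least 2-fold higher, beside 9.31% of all genes. The 8 trophectoderm markers, all reaching the floor, averaged 4.83 in EWS-OCT4A-GFP cells and 8.09 in GFP cells. At least 2-fold lower were 6, beside 11.9% of all genes. Because of the shared genes, these 2 marker counts are no evidence apart from those lists. Of 8 fibroblast markers, which would show feeder cells, 1 differed by 2-fold (Vim, at 2.15), and Col1a1 read 4.94 in EWS-OCT4A-GFP cells and 5.01 in GFP cells. Primitive endoderm markers had 1 gene at least 2-fold higher (Lama1, 2.86) and 3 lower (Dab2, Gata6 and Pdgfra). With 6 fibroblast and 7 primitive endoderm markers at the floor, these counts say little beside the shares of all genes. The part of a different cell make-up in the readings of the members was not tested.

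Known regulators of the Pou5f1 gene differed in both directions, beside a difference of 0.13 for Pou5f1 itself. Both lines had doxycycline to lower endogenous OCT-4, so that the Pou5f1 reading need not reflect these regulators. A link between them was not tested. Of 18 measured, 16 reached the floor, 2 were higher by 2-fold or more, 3 were lower by as much, and the median was -0.10 (-0.30 over those reaching the floor). These 5 of 16 stand beside 21.2% of all genes. Nr5a2, an orphan nuclear receptor gene whose product activates Pou5f1, read 7.94 in EWS-OCT4A-GFP cells and 6.61 in GFP cells, a difference of 1.33. Foxd3, a forkhead factor gene of pluripotent cells, differed by 1.26. Nr6a1, which encodes the germ cell nuclear factor that represses Pou5f1 during differentiation, read 5.63 in EWS-OCT4A-GFP cells and 7.14 in GFP cells. It differed by -1.51, and Nr2f2, which encodes the repressor COUP-TFII, by -1.26. Rxra, the gene of a partner of retinoic acid receptors, differed by -2.12. The nuclear receptor half-site in the Pou5f1 window above has the letters that receptors of these kinds read, but no binding was measured here.

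Genes of proteins found with OCT4 included 11 of 27 at least 2-fold higher and 1 lower, beside 9.31% and 11.9% of all genes. All 27 reached the floor, 22 had a difference above 0 (51.2% of all genes reaching the floor did), and the median was 0.73. The list shares Nanog, Esrrb, Nr0b1 and Trim28 with the genes activated by OCT4. It too was drawn up with earlier results of these samples known and is no independent evidence of a direction. Besides Nr0b1 and Nanog, the widest differences were those of Esrrb, an orphan nuclear receptor gene (2.98, with a GFP reading of 4.07 just under the floor), and Nacc1, a BTB-domain repressor gene (2.70). The 1 gene at least 2-fold lower was Mta3, which encodes a subunit of the NuRD deacetylase complex, with 7.45 in EWS-OCT4A-GFP cells and 9.04 in GFP cells, a difference of -1.59. Of the chromatin remodelling subunits listed, Smarca4 differed by -0.18, Smarcc1 by 0.10 and Arid1a by 0.41, all within 2-fold.

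SOX factors share DNA elements with OCT4. Of 19 SOX genes, all measured, 14 reached the floor and the median was -0.04. Differing by 2-fold were 2, beside 21.2% of all genes reaching the floor, a count that says little about the list. Sox2, whose product is the main DNA-binding partner of OCT4 in embryonic stem cells, read 9.87 in EWS-OCT4A-GFP cells and 5.50 in GFP cells, a difference of 4.37. Sox4 read 4.45 in EWS-OCT4A-GFP cells and 6.13 in GFP cells, a difference of -1.68. Sox7 (0.71) and Sox8 (-0.62) came next among those reaching the floor. Sox15, whose product can also pair with OCT4 on DNA, read 7.89 in EWS-OCT4A-GFP cells and 8.05 in GFP cells.

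Cofactors of OCT1 and OCT2, with the SNAPc complex that OCT1 recruits to small nuclear RNA genes, had a median of -0.10 (-0.21 under loess centring). Of 15 genes, all reaching the floor, 2 were at least 2-fold higher and none lower, beside 9.31% and 11.9% of all genes. That count says little about the list. The 2 were Snapc5 (7.00 in EWS-OCT4A-GFP cells and 4.96 in GFP cells) and Nfyb, a subunit gene of the factor that binds the CCAAT box (7.28 in EWS-OCT4A-GFP cells and 5.92 in GFP cells). The other SNAPc genes were within 2-fold, with Snapc3 at 0.75, Snapc1 at -0.35, Snapc2 at -0.36 and Snapc4 at -0.23. The OCT1 coactivator gene Hcfc1 differed by -0.09, its relative Hcfc2 by -0.85, and Pou2af1, the B-cell coactivator gene, by -0.23.

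Of 19 measured partners and modifiers of the FET proteins, 18 reached the floor, 1 was at least 2-fold higher and none lower, beside 21.2% of all genes that differed by 2-fold. A difference above 0 in the deposited values was found for 17 of the 19. The share was 49.6% of all genes and 51.2% of genes reaching the floor. This list, too, was drawn up with earlier results of these samples known and is no independent evidence of a direction. The median was 0.24, and 0.11 under loess centring. Bard1, which encodes the BRCA1 partner that binds EWS, differed by 1.61. Sfpq, a paraspeckle protein gene, differed by 0.96, Prmt1, the arginine methyltransferase gene that modifies FET proteins, by 0.86, and Tardbp, which encodes TDP-43, by 0.61. Tnpo1, the gene of the nuclear import receptor of FET proteins, read 8.95 in EWS-OCT4A-GFP cells and 8.73 in GFP cells. The U1 snRNP genes Snrpc (0.07) and Snrnp70 (0.22) and the splicing factor gene Sf1 (0.05) were close to 0, and the coactivator genes Ep300 (0.35) and Crebbp (-0.45) fell on either side of it.

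TFIID, the complex that TAF15 associates with, had 16 genes measured and 15 at the floor, with a median of 0.18. At least 2-fold higher were 2 and none lower, beside 9.31% and 11.9% of all genes, a count that says little. Taf9 (1.02) and Taf8 (1.00) just passed 2-fold as deposited, and neither did after median centring (0.99 and 0.97) or loess centring (0.92 and 0.91). Taf12 differed by 0.85 and Tbp, the TATA-binding protein gene, by 0.59. Taf1, the largest subunit's gene, differed by 0.06 and Taf5 by -0.32.

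**Figure D3:**
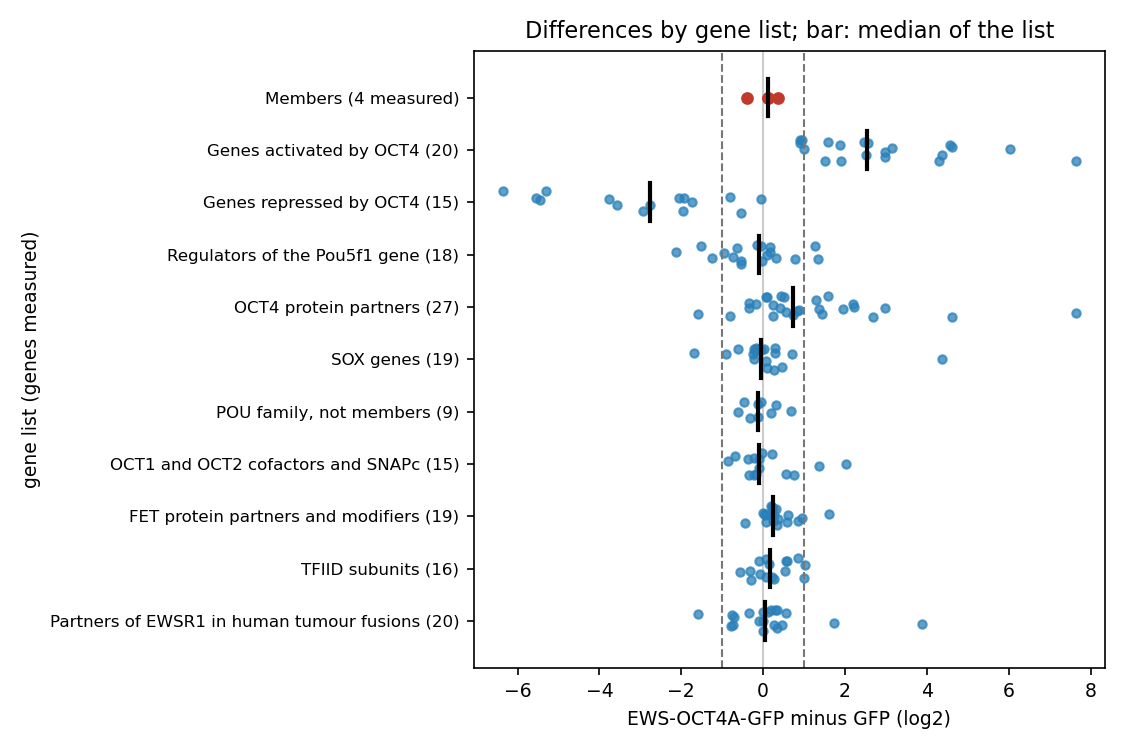
Difference (EWS-OCT4A-GFP minus GFP, log2) of each measured gene by list, with 1 point a gene and a black bar at the median. Dashed lines mark 2-fold. The 4 members lie within 2-fold around a median of 0.12. The genes activated by OCT4 lie to the right (median 2.54) and those repressed by it to the left (median -2.77). Medians were -0.12 for the other POU genes, -0.04 for SOX, 0.24 for FET partners, 0.18 for TFIID and 0.73 for OCT4 protein partners. Genes on more than 1 list are drawn in each.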

How the data were processed

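RNA of 2 samples was hybridised to an Affymetrix mouse array. The deposited log2 values are RMA signals made with Affymetrix Expression Console 1.1, per the submitters' processing notes; RMA corrects background, quantile-normalizes arrays and summarises probe sets. The log base was taken from RMA practice and the range of values. The design text speaks of duplicates, but each line has 1 column, and nothing here says whether a column pools arrays. Precision is limited by the number of arrays.

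Of 33793 probe sets, 23521 had 1 symbol, 1814 several and 8458 none; 23328 of the single-symbol ones were found by gene ID in RefSeq (GRCm38.p6), with 0 symbols differing. For 1082 of 22180 genes with more than 1 probe set, that with the highest mean stood for the gene. Differences are EWS-OCT4A-GFP minus GFP. A gene was counted past 2-fold when its higher value reached the floor, the median of all values (4.10). Named were all members, measured POU genes, up to 4 genes a list with the largest difference at the floor, list genes whose role is described, and the 3 genes nearest to Pou5f1. The members and the 14 lists (198 genes) were chosen with earlier results of these data known. Alternatives covered threshold, floor, scaling (median, quantile, loess with a span of 0.3) and the probe set rule. The counting was tested on simulated data. Python 3.11.15, pandas 2.3.3 and statsmodels 0.14.6 were used.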

Additional observations from a re-analysis of the deposited data

How the results depend on the processing

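No paired analysis was possible because each line has 1 sample, and no replicate could be left out. The differences of Pou5f1, Pou6f1, Ewsr1 and Taf15 stayed within 2-fold under median, quantile and loess centring. They moved by at most 0.1 log2 with 1 exception, Ewsr1 at 0.0022 under loess. Averaging of probe sets could not change them, because each of these genes has 1 probe set. At 1.5-fold, 2708 genes counted as higher and 2784 as lower, against 1259 and 1608 at 2-fold, while a 3-fold threshold left 464 higher and 786 lower. Over all probe sets, 3784 were higher and 3453 lower by 1.5-fold, whereas 611 were higher and 937 lower by 3-fold. By construction, fewer pass a larger threshold. Averaging probe sets moved the median from -2.77 to -2.07 for the genes repressed by OCT4 and from -2.82 to -2.06 for the trophectoderm markers. Their counts at least 2-fold lower stayed at 12 and 6. The list of Pou5f1 regulators had a median of -0.30 over genes at or above the floor. Under median and loess centring 0 TFIID genes passed 2-fold. Background is unknown for these signals, which limits Pou5f1, Pou6f1 and the other POU genes most.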

Other observations

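Of 23 genes that join EWSR1 in human tumour fusions other than the one studied here, 20 were measured and 16 reached the floor. At least 2-fold higher were 2 and at least 2-fold lower was 1, beside 9.31% and 11.9% of all genes reaching the floor. Such a count says little about the list. Its median was 0.06. Etv1 read 7.00 in EWS-OCT4A-GFP cells and 3.12 in GFP cells, a difference of 3.89 whose size is uncertain because the GFP reading was under the floor. Etv4, of the same PEA3 group of ETS factors, read 5.89 in EWS-OCT4A-GFP cells and 4.16 in GFP cells, a difference of 1.74. The ETS genes Fli1 and Erg, the most frequent partners in Ewing sarcoma, were under the floor in both samples, with Fli1 at 3.52 in EWS-OCT4A-GFP cells and 2.95 in GFP cells. Vgll1, a TEAD cofactor gene of trophoblast, read 3.35 in EWS-OCT4A-GFP cells and 4.94 in GFP cells, a difference of -1.59 that is uncertain in size for the same reason, its EWS-OCT4A-GFP reading being under the floor. Ddit3 differed by -0.75.

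The 3 genes whose 2 readings lay nearest to those of Pou5f1, by Euclidean distance over the 2 samples, were Rabep2 (0.013), Cspg5 (0.013) and Stk38l (0.019). With 2 samples and 22180 genes such neighbours are many, and the distance says nothing of shared function.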
